A study of Mus musculus with 20 samples.

Results

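Solute carriers (Slc genes) were followed at the cytosines of their mRNAs in bisulfite libraries of 5 mouse tissues. The members are the listed cytosines whose gene symbol starts with Slc and a digit, leaving out the mitochondrial carriers (Slc25) and the genes Slc12a3, Slc27a2 and Slc3a1. They are 388 of the 32378 sites in the deposited table and lie in 158 of its 10243 gene IDs. The rule rests on symbols, so 12 of the sites belong to 5 genes that are named after a carrier without being one, such as the scaffold proteins Slc9a3r1 and Slc9a3r2.

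Libraries came from 8-week-old female mice, from heart, kidney, spleen, liver and small intestine, and were either wild-type (WT) or Nsun6 knockout (KO), with 2 libraries per tissue and genotype and 20 in all. Per the study's methods, exons 3 and 4 of Nsun6 were removed with CRISPR/Cas9 in fertilized C57BL/6J eggs and KO mice were bred from heterozygotes; the strain of the WT mice is not stated there. Tissues were dissected, frozen and ground, so in these bulk samples fewer cells of a type and less RNA per cell cannot be told apart. Nothing in the labels or methods states that both libraries of a group stem from different mice, and p-values then measure only the spread between these libraries, which may be technical.

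Solute carriers are membrane proteins that move ions, sugars, amino acids, organic acids, metals and drugs across cell and organelle membranes. Which carriers a tissue makes shapes what it can take up: enterocytes absorb sugars and amino acids, the proximal tubule of the kidney reclaims urate and dicarboxylates, the hepatocyte takes up glutamine, and heart muscle exchanges chloride for bicarbonate. 5-methylcytosine (m5C) on mRNA is placed mainly by NSUN2 and NSUN6, and NSUN6 is known for a preference for the bases CTCCA starting at the methylated C. Bisulfite turns unmethylated C into a base read as T, so the m5C level of a site was taken as reads that keep C over coverage, a share between 0 and 1.

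The sites on which the results turn are shown first, each as 21 bases of the transcribed strand read from the mm10 genome, 5′ to 3′. The capitals mark the listed C and the 4 bases after it. The first set, with Slc4a3 at the head of the second, holds the 18 Slc sites that met the criteria for a reproducible level given below.

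Slc43a2, chromosome 11, position 75577350, 3′ UTR: tttctgttacCAGGAgcatct

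Slc16a10, chromosome 10, position 40141992, coding: gggagacgaaCGAGGcgcagc

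Slc16a13, chromosome 11, position 70216879, 3′ UTR: acctagaatcCAGAGgatccg

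Slc38a10, chromosome 11, position 120105178, coding: gcctctcatcCAGAGcaggag

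Slc13a3, chromosome 2, position 165405798, 3′ UTR: tcagagaaaaCGGGGgcaaag

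Slc22a12, chromosome 19, position 6537768, coding: aggcactcatCGGGAttgtgg

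Slc35a3, chromosome 3, position 116670944, 3′ UTR: ggacgcttttCAGGTtgtaag

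Slc35e1, chromosome 8, position 72483202, 3′ UTR: ggtgccaaagCAGGGcctggg

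Slc39a1, chromosome 3, position 90251701, coding: gttccccttgCAAGAgttcat

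Slc16a7, chromosome 10, position 125227673, 3′ UTR: ctcacctaagCACAAttcaac

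Slc44a1, chromosome 4, position 53560977, coding: agcaagattaCACAGtatggg

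Slc36a1, chromosome 11, position 55234331, 3′ UTR: gagcctgctgCGTGActtcta

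Slc12a7, chromosome 13, position 73816542, 3′ UTR: gttaggaatgCCCTGggcagc

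Slc52a3, chromosome 2, position 152008730, 3′ UTR: cgcctccattCCTTTtctgca

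Slc13a3, chromosome 2, position 165405607, 3′ UTR: agtgtggggaCAGTGggtgac

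Slc43a2, chromosome 11, position 75577349, 3′ UTR: ctttctgttaCCAGGagcatc

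Slc4a3, chromosome 1, position 75551798, coding: ccgttgtggcCACATgaccct

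The second set holds Slc sites at the NSUN6 motif, shown because WT and KO are compared at them below.

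Slc4a3, chromosome 1, position 75548902, coding: cttcccgaatCTCCAcagaga

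Slc38a3, chromosome 9, position 107651429, 3′ UTR: cttccctctcCTCCAtagggg

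Slc22a27, chromosome 19, position 7926456, coding: atggcactttCTCCAatgtgt

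Slc22a29, chromosome 19, position 8218359, coding: atggcactttCTCCAatgtgt

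The windows of Slc22a27 and Slc22a29, organic anion transporters of one family, are identical over all 21 bases, so reads of either gene could have been counted at the other, and their values are uncertain.

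Depth and the character of the libraries bear on every value. Each library held between 1230665 and 4640168 reads at listed positions, and Slc sites took 0.542% to 2.76% of them, with the highest shares in small intestine. In 9 libraries the authors passed between 1410 and 4679 sites of any gene, and in the other 11 between 115 and 745. Those 9 libraries hold 369 of the 435 passes of Slc sites (84.8%) and 87.2% of all passes. Every tissue had both kinds of library. The 5 marker lists of the tissues took their highest share of reads in all 4 libraries of their own tissue, and pancreas acinar markers (1 of 6 genes with sites) took 1.4% and 0.91% of the reads in replicate 1 of small intestine WT and KO and 0% in both replicates 2. The 2 liver KO libraries stood apart in another way: the median squared difference of their coverage was 1.5 times sampling noise, against 12.7 to 43.6 times in the other 9 groups, and the sources do not say how they were made. They are kept as 2 libraries, and the value with both summed to 1 is given where a liver result is tested.

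Coverage differed by tissue. It is given for 1 site of each gene as RPM, the reads at the site scaled to the library's reads over all listed sites, with no test, since it is not the measured outcome, and a site is listed in a library only from 10 reads. In small intestine the highest Slc coverage in WT was at Slc27a4, a fatty acid transport protein of the brush border, with 3117 and 3352 in WT and 3667 and 479 in KO. Slc9a3r1, the scaffold that anchors carriers to the brush border, had 1031 and 1282 in WT and 889 and 1052 in KO. Slc6a8, the creatine carrier, had 1249 and 853 in WT and 167 and 349 in KO, and Slc43a2, a carrier of neutral amino acids, had 1290 and 626 in WT and 2710 and 315 in KO. The WT and KO ranges of Slc27a4, Slc9a3r1 and Slc43a2 overlapped, and those of Slc6a8 did not.

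In liver, Slc38a3, which moves glutamine, had 518 and 194 in WT and 512 and 466 in KO and was not listed in any small intestine or spleen library. In spleen, Slc28a2, a nucleoside carrier, had 100 and 179 in WT and 152 and 107 in KO, below the 574 and 786 of small intestine WT. The choline carrier-like gene Slc44a2 had 114 and 175 in WT and 199 and 101 in KO, above its values in every library of the other 4 tissues, of which the highest was 63.8 in heart WT replicate 2.

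Kidney had the carriers of tubule reabsorption. Slc22a12, the urate carrier, had 430 and 410 in WT and 616 and 248 in KO, Slc13a3, the sodium-dependent dicarboxylate carrier, had 616 and 202 in WT and 775 and 134 in KO, and Slc17a1, a phosphate and urate carrier, had 174 and 339 in WT and 148 and 24.4 in KO. In heart, the phosphate carrier Slc20a2 had 367 and 385 in WT and 164 and 171 in KO, and Slc49a4 had 232 and 166 in WT and 78.3 and 56.9 in KO. The zinc carrier Slc39a1 had 86.7 and 30.9 in KO. For these 3 genes both KO hearts were below both WT hearts, whereas the scaffold Slc9a3r2 had 210 and 207 in WT, 223 in KO replicate 1 and less than either WT library in KO replicate 2. These genes were chosen for high coverage in WT heart, which favours KO below WT, and the share of this order over all sites was not computed. Heart muscle markers (3 of 8 genes with sites) took 0.0273% and 0.0341% of the reads in WT and 0.132% and 0.0948% in KO, and their part in this was not tested.

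**Figure D1:**
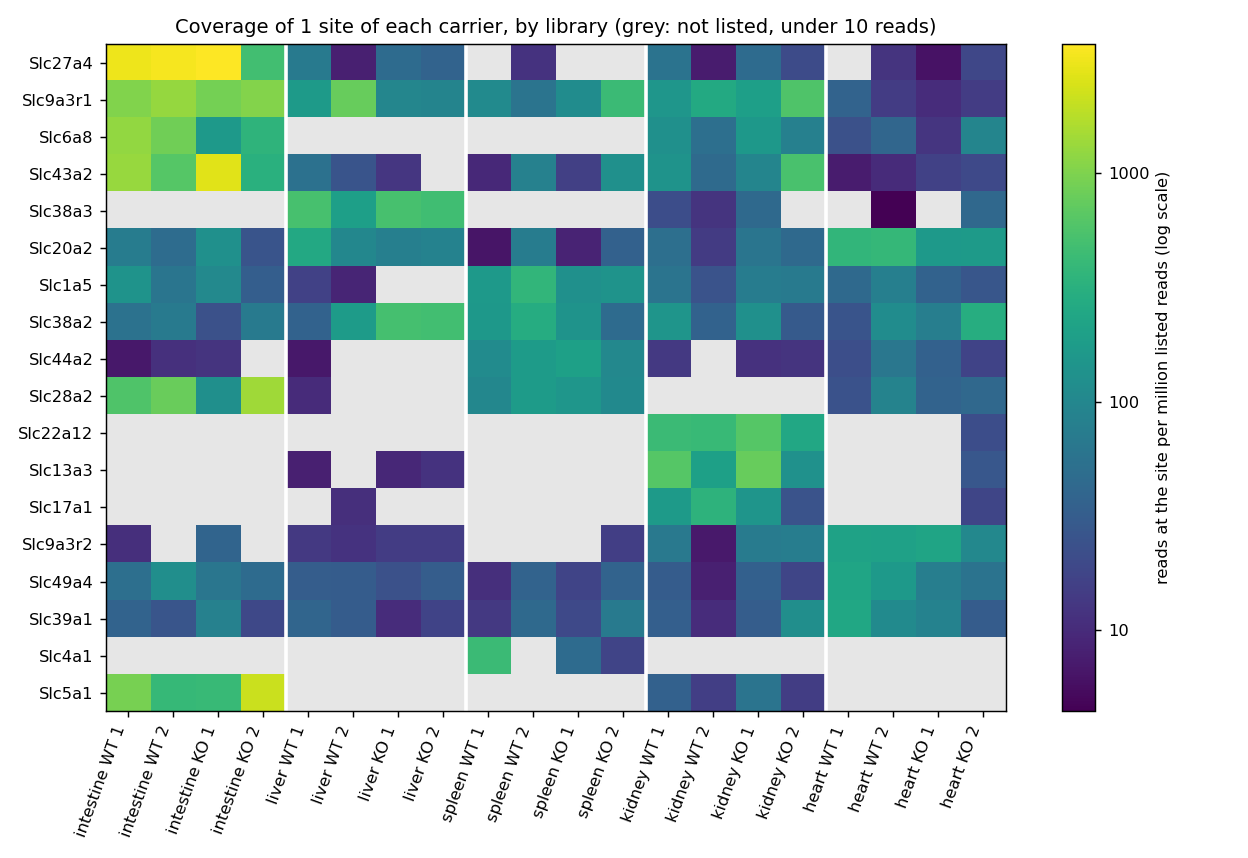
Coverage of 1 site of each of 18 Slc genes (rows) in the 20 libraries (columns), as RPM over listed sites on a log colour scale; grey cells are not listed there. Slc22a12, Slc13a3 and Slc17a1 fill the 4 kidney columns and recur in heart KO replicate 2 at 21.9, 27.6 and 17.9.

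Reads of carriers outside their tissue marked single libraries, named here after their values were seen. Heart KO replicate 2 carried Slc22a12 at 21.9, Slc13a3 at 27.6 and Slc17a1 at 17.9 RPM, and none of these was listed in the other 3 heart libraries. Kidney tubule markers, of which 5 of the 8 list genes had sites, took 0.269% of its reads against 0.0651% to 0.0988% in those 3 hearts. In spleen, Slc4a1, the band 3 anion exchanger of red cells, had 427 RPM in WT replicate 1, was not listed in WT replicate 2, and had 46.8 and 17.5 in KO. Erythroid markers (4 of 7 genes with sites) took 4.33% of the reads of spleen WT replicate 1, 0.00365% of WT replicate 2, and 0.31% and 0.276% in KO. The order of the 4 spleen libraries was the same for Slc4a1 and for the erythroid share. In liver, erythroid markers took 0.542% of WT replicate 1, 0.0033% of WT replicate 2, and 0.000643% and 0% in KO. Spleen lymphoid and myeloid markers (6 of 8 genes with sites) took 0.231% of liver WT replicate 1, 0.0107% of WT replicate 2, and 0.0171% and 0.0166% in KO. The part of all these reads in the results below was not tested.

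Most Slc sites had been passed once. Of the 388 sites, 373 (96.1%) were passed in exactly 1 library, against 97.1% of all listed sites, and 15 in 2 or more. Among the 373, 294 (78.8%) had no unconverted read in any other library, and over all other libraries these sites held 1245 unconverted of 456085 reads (0.273%). The number of Slc sites passed ran from 1 in liver KO replicate 2 to 54 in kidney KO replicate 2.

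**Figure D2:**
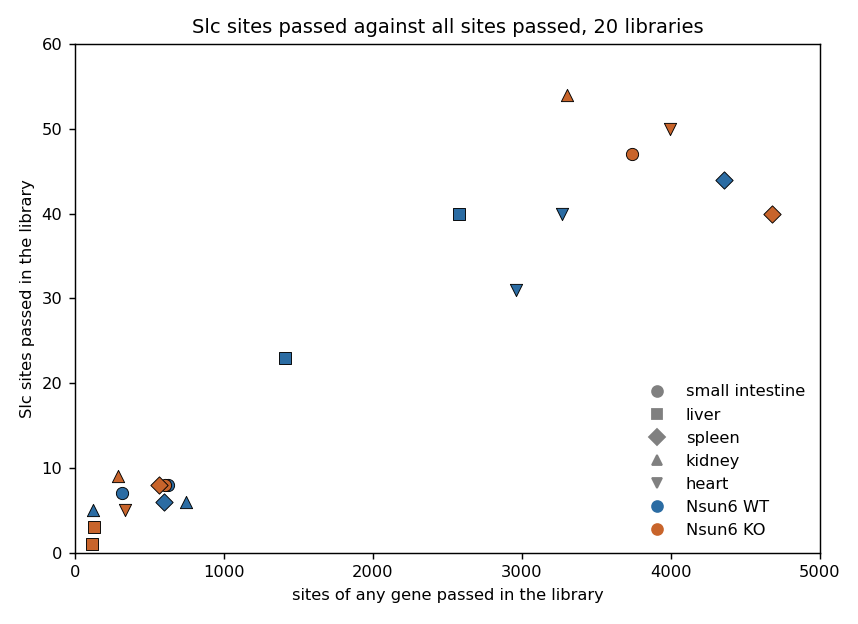
Slc sites passed in each library (y axis) against sites of any gene passed in the same library (x axis), for 20 libraries; shape gives the tissue and colour the genotype. The 9 libraries with 1410 to 4679 passed sites have 23 to 54 Slc sites, and the other 11 have 1 to 9.

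A small set of Slc sites was read as C in every read of 1 library. These were 9 sites at level 1 with at least 20 reads, 6 of them in kidney KO replicate 2 and 3 in spleen KO replicate 2. Sites of other genes at level 1 were not counted, so the 9 are not a trait of Slc sites. The zinc carrier Slc39a5 had 29 of 29 reads unconverted in kidney KO replicate 2 and 0 of 488 elsewhere. Slc31a2, a copper carrier, had 22 of 22 there and 0 of 282 elsewhere, and Slc7a1, which carries cationic amino acids, had 21 of 21 in spleen KO replicate 2 and 0 of 164 elsewhere. At each of the 9 sites the other libraries held 0 unconverted reads, and for Slc2a8 no other library listed reads. Over Slc sites that never met the criteria below, the pooled level was 4.52% in kidney KO replicate 2 and 3.96% in spleen KO replicate 2, the highest of the 20 libraries, and 0.0599% in liver KO replicate 2, the lowest. Over sites of any gene that never met them, it was 3.3%, 3.82% and 0.104% in the same libraries.

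Sites were therefore read by criteria that both libraries of a group had to meet: at least 20 reads, at least 2 unconverted reads and a mean level of at least 0.05. Of the 388 sites, 338 had 20 reads in both libraries of at least 1 group and 50 had not. The criteria were met in at least 1 group by 18 Slc sites in 15 genes, which is 5.33% of the covered sites, against 4.31% over all listed sites. In WT, 6 Slc sites met them in kidney (3.82% of those covered, against 1.29% over all sites), 4 in heart (3.01% against 3.59%), 3 in small intestine (2.31% against 1.27%), 3 in liver (2.88% against 1.68%) and 0 of 114 in spleen (0.858% over all sites). In KO, 9 met them in kidney (4.39% against 1.36%), 7 in heart (6.93% against 4.38%), 4 in small intestine (2.53% against 1.17%), 3 in liver (3.26% against 2.28%) and 0 of 129 in spleen (0.87% over all sites). By count kidney had the most Slc sites in both genotypes and spleen none, and by share heart was above kidney in KO. The order rests on asking for both libraries: with 1 WT library alone, 7 to 8 Slc sites met the criteria in kidney, 32 to 43 in heart, 23 to 42 in liver, 8 to 46 in spleen and 7 to 11 in small intestine. In every group the median level of covered Slc sites was 0, and between 62.5% (liver WT) and 87% (liver KO) of them had no unconverted read.

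The amino acid carriers held the most recurrent site. Slc43a2 carries neutral amino acids such as leucine, and its site at position 75577350 lies in the 3′ UTR, in the last of 14 exons and 4877 bases after the stop codon. It was passed in 13 libraries. In small intestine its level was 0.217 and 0.147 in WT and 0.241 and 0.206 in KO, over 578 to 6869 reads. In kidney it was 0.163 and 0.189 in WT and 0.227 and 0.234 in KO. In heart it was 0.52 in WT replicate 2 and 0.545 and 0.458 in KO, over 24 to 33 reads, with 0.471 in WT replicate 1 on 17 reads. Liver WT gave 0.221 and 0.0556, and spleen KO gave 0 and 0.144. The level was thus highest in the heart libraries, each with 17 to 33 reads, and WT and KO overlapped in small intestine but not in kidney, where both KO libraries were above both WT libraries.

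The C directly before it, position 75577349, was lower in all libraries with 20 reads at both except spleen KO replicate 1, where both were at 0, and shares its reads. Its mean level was 0.053 ± 0.0109 (SD, n = 2) in small intestine WT and 0.0408 ± 0.00894 (n = 2) in KO. In kidney it was 0.04 and 0.0137 in WT and 0.0724 and 0.0955 in KO, and in heart KO 0.114 and 0.0833. Of all Slc sites, 9 of 388 (2.32%) had another listed site within 10 bases, against 5.76% of all sites.

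Slc38a10, a member of the amino acid carrier family whose site lies in the last coding exon 178 bases before the stop codon, had at least 20 reads in all 20 libraries. In heart its level was 0.253 and 0.0358 in WT and 0.16 and 0.0732 in KO. In liver it was 0.00897 and 0.103 in WT and 0.0574 and 0.0505 in KO. It met the criteria in both genotypes of heart and liver and in no other group, and WT and KO overlapped in both. Slc36a1, a proton-coupled carrier of small amino acids, met them in small intestine, with 0.087 and 0.0235 in WT and 0.357 and 0.0446 in KO.

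Carriers of organic acids and choline had 6 sites in 5 genes that met the criteria. Slc16a10, which carries aromatic amino acids within the monocarboxylate carrier family, has its site in the first coding exon, 1491 bases before the stop codon, and was passed in 10 libraries. In liver its level was 0.277 and 0.284 in WT and 0.12 and 0.0385 in KO, on 25 and 26 KO reads. In small intestine it was 0 and 0.104 in WT and 0.117 and 0.171 in KO. In kidney KO it was 0.208 and 0.25, while the WT libraries had 0 of 12 reads and 1 of 37. The KO libraries were below WT in liver and above WT in small intestine, with no overlap in either.

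Slc16a13, another member of the monocarboxylate family, was met in kidney WT alone, where its 3′ UTR site had 0.293 and 0.288, and kidney KO replicate 1 had 0.216 over 283 reads and replicate 2 was not listed. Slc16a7, a high-affinity monocarboxylate carrier, had 0.619 and 0.5 in liver KO on 21 and 20 reads and was not listed in liver WT. In kidney the same site had 0.75 (15 of 20) and 0.0278 (1 of 36) in WT and 0 of 98 in KO replicate 1, so the 2 kidney WT libraries lay far apart.

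Slc13a3, which brings dicarboxylates such as succinate into tubule cells, had 2 sites in its 3′ UTR, 885 and 1076 bases after the stop codon. At position 165405798 the level in kidney was 0.172 and 0.0701 in WT and 0.154 and 0.167 in KO, over 258 to 3595 reads, and the 34 reads of heart KO replicate 2 gave 0.176. At position 165405607, which the naming rule leaves out as the lowest of the 9 kidney KO sites, 3 libraries had 0.0051 to 0.0068 and kidney KO replicate 2 had 0.104. Slc44a1, a choline carrier, met the criteria in heart KO through 9 of 21 and 2 of 33 reads.

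Among drug, urate and vitamin carriers, Slc22a12 met the criteria in both genotypes of kidney. The urate carrier had 0.0578 and 0.0457 in WT and 0.05 and 0.166 in KO, over 477 to 2859 reads, with KO replicate 2 above the other 3 libraries. Slc52a3, a riboflavin carrier, had 0 of 24 and 0 of 44 reads in kidney WT and 2 of 99 and 19 of 60 in KO. The 2 WT libraries together allow a level of up to 0.0441.

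The ion carrier class held 97 Slc sites, the most of any class, and 3 of them met the criteria. Classes go by the family number in the symbol, so they also count genes named after a carrier, such as Slc4a1ap here and Slc2a4rg-ps in the sugar class. Slc12a7, a potassium and chloride cotransporter, had 0 of 28 and 0 of 246 reads in kidney WT and 2 of 271 and 24 of 64 in KO at its 3′ UTR site at position 73816542. The same site had 0 unconverted of 766 reads in small intestine WT and of 437 in KO. Slc4a3, the chloride and bicarbonate exchanger of heart, had a site at position 75551798 with 0.0457 and 0 in WT heart and 0.1 and 0.0256 in KO. Its other site is taken up with the NSUN6 motif below.

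Among metal and nucleotide sugar carriers, Slc39a1, a zinc importer, had its highest levels in heart: 0.681 and 0.263 in WT and 0.0638 and 0.22 in KO, over 47 to 99 reads. Both KO hearts were below both WT hearts, but the WT libraries differed from each other by more than the lower of them differed from KO. In kidney it had 0.119 and 0.048 in WT and 0.0862 and 0 in KO. Slc35a3, which brings UDP-N-acetylglucosamine into the Golgi, had 0.0608 and 0.105 in kidney WT and 0.0827 and 0.0741 in KO, and 0.11 and 0.0833 in liver KO. Slc35e1 had 0.0619 and 0.355 in heart WT and 0.274 and 0.19 in KO. In small intestine it had 0 of 48 and 0 of 37 reads in WT, and 14 of 54 and 4 of 73 in KO.

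**Figure D3:**
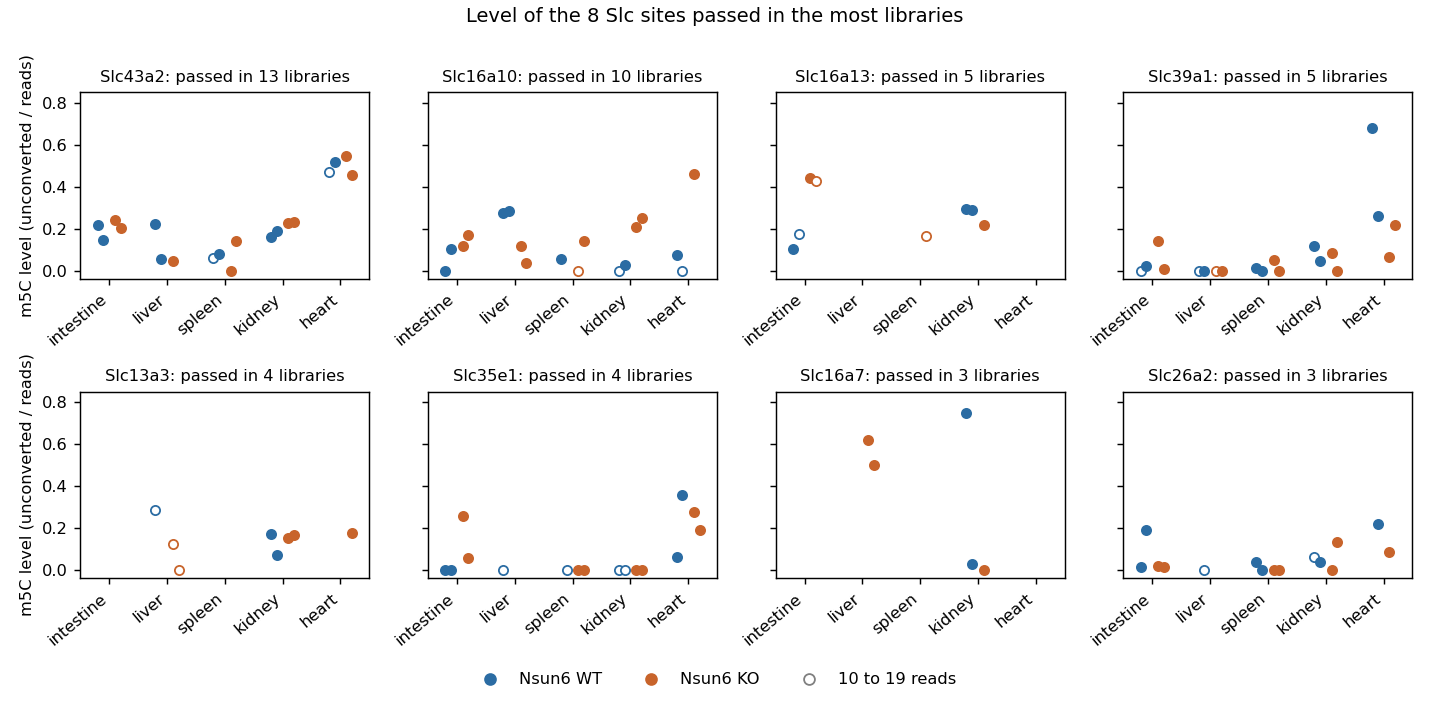
m5C level (y axis, unconverted reads over reads) of 8 Slc sites passed in at least 3 libraries (Slc38a10, also passed in 3, is not drawn), by tissue (x axis); each point is 1 library, blue for WT and orange for KO, open where it had 10 to 19 reads. Slc43a2 reaches 0.458 to 0.545 in heart, and Slc16a7 spans 0 to 0.75 within kidney.

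No site of the phosphate and sugar phosphate class (28 sites in 9 genes) or of the sugar class (31 sites in 18 genes) met the criteria. Of these sites 27 and 23 were covered, and over all listed sites 4.31% of covered sites met the criteria, so 0 is near that share. The highest values of both classes came from single libraries. Slc5a1, the sodium-coupled glucose carrier of the brush border, had 1 of 1527 and 0 of 571 unconverted reads in small intestine WT, 0 of 1070 and 2 of 4878 in KO, and 24 of 29 in kidney KO replicate 2. Slc20a2 had 0 unconverted reads at position 22569253 in 19 libraries, 803 and 959 reads in WT heart among them, and 25 of 85 in kidney KO replicate 2. At position 22560603 its level was 0.137 and 0.0164 in heart WT and 0.234 and 0 in KO. Among sites passed in more than 1 library without meeting the criteria, the sulfate carrier Slc26a2 had 2 close neighbours in its 3′ UTR, passed in 3 and 2 libraries, with 14 of 73 and 2 of 107 unconverted reads in small intestine WT replicate 2. Slc28a2, the fructose carrier Slc2a5 and Slc35f6 each had such a site, passed in 2 libraries.

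The effect of losing Nsun6 on these levels was tested with edgeR's quasi-likelihood test, for sites that met the criteria in WT or KO and had 20 reads in all 4 libraries of a tissue, with p-values adjusted over all sites tested. This took in 21 pairs of an Slc site and a tissue, from 15 sites in 12 genes: 9 in kidney, 5 in heart, 5 in small intestine, 2 in liver and 0 in spleen. None fell or rose at an adjusted p of 0.05, and 1 had an unadjusted p under 0.05. Limma and DESeq2 also called none. Over all sites, 0% fell and 0% rose in kidney, 2.1% fell and 0.191% rose in heart, 2.36% fell and 0.787% rose in small intestine, 0.649% fell and 1.95% rose in liver, and 0% fell and 1.32% rose in spleen, and a count of 0 among 21 pairs is near these shares. KO lay above WT without overlap in 6 pairs, below in 3, and the groups overlapped in 12. Both Slc43a2 sites in kidney, which share reads, are among the 6. The share of such orders over all sites was not computed, so these counts are not a result about Slc genes.

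The pair with the smallest p was Slc35e1 in small intestine, with a mean level of 0 in WT and 0.157 ± 0.145 (SD, n = 2) in KO (edgeR adjusted p = 0.216). The largest lower mean in KO was at Slc39a1 in heart, 0.472 ± 0.296 in WT and 0.142 ± 0.11 in KO (n = 2 each, edgeR adjusted p = 0.639). Slc16a10 in liver had 0.28 ± 0.00501 in WT and 0.0792 ± 0.0577 in KO (n = 2 each, edgeR adjusted p = 0.429, and 0.977 with the liver KO libraries summed to 1). Its adjusted p was 0.0232 without liver WT replicate 1 and 0.0404 without replicate 2, in fits that called 35 and 15 of the 154 sites lower against 1 with all libraries. In kidney, leaving out KO replicate 1 led to 86 of 209 sites being called higher, Slc12a7, Slc22a12, Slc52a3 and Slc13a3 at position 165405607 among them, and leaving out KO replicate 2 led to no Slc call.

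**Figure D4:**
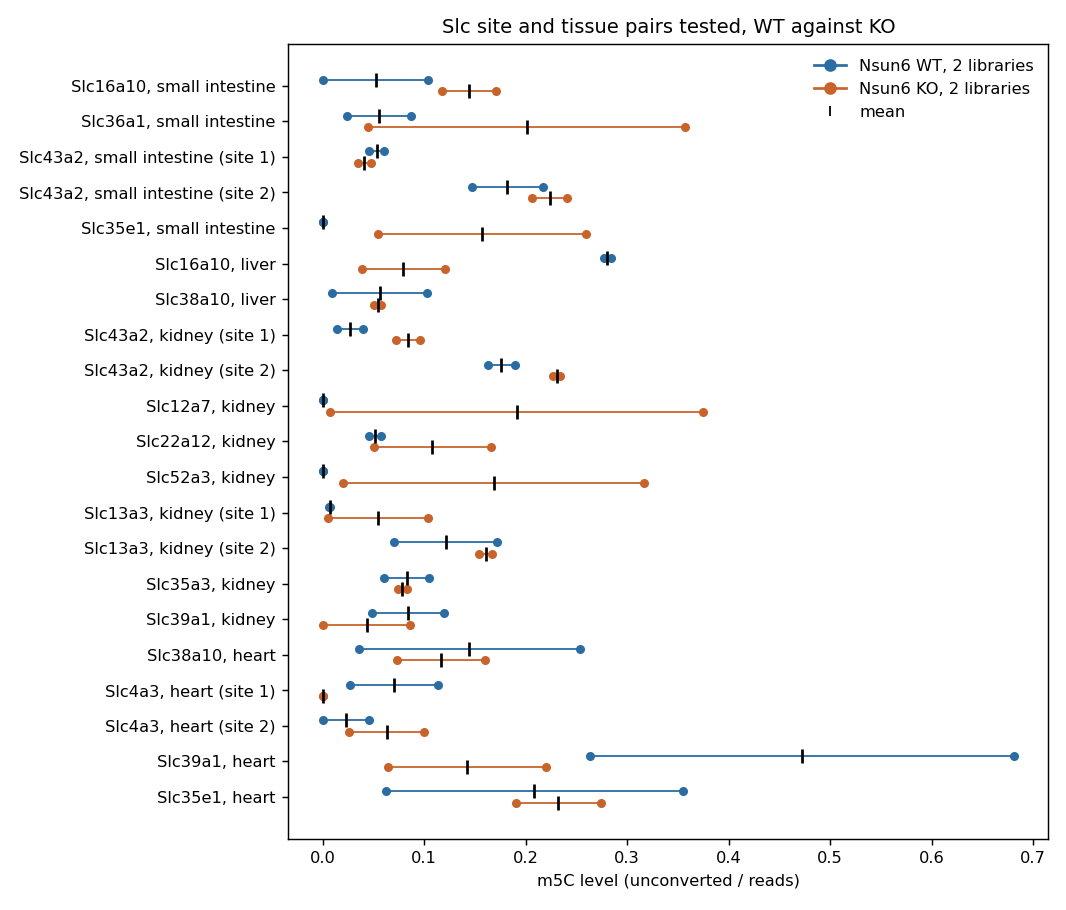
m5C level (x axis) of the 21 tested pairs of an Slc site and a tissue (rows); points are libraries, lines join the 2 of a group and bars mark means, blue for WT and orange for KO. The groups overlap in 12 rows, and the widest spreads, such as 0.00738 to 0.375 for Slc12a7 in kidney KO, lie within 1 genotype.

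Over the 5 tissues together, Slc38a10 was the 1 Slc site with enough reads, and its level did not pass the test (edgeR log2 ratio of the odds 0.35, adjusted p = 0.876); over all 216 sites 2.31% fell and 0% rose. Between WT tissues its mean level was 0.144 ± 0.153 in heart, 0.0562 ± 0.0668 in liver, 0.0276 ± 0.0104 in kidney, 0.0189 ± 0.00119 in small intestine and 0 in spleen (SD, n = 2 each), where 0 of 367 reads allow up to 0.00817. It missed the threshold (edgeR F test, adjusted p = 0.0802) in a test that called 43.3% of the 208 sites tested, and the libraries of neighbours in this order overlapped for heart and liver and for liver and kidney, while kidney (0.0203 and 0.035) lay just above small intestine (0.018 and 0.0197). With a minimum of 10 reads, 4 Slc sites entered and Slc39a1 was called (edgeR adjusted p = 0.0267). Over all 303 sites tested at this minimum, the share called was larger than 1 of 4. The call of Slc39a1 is therefore not a trait of Slc sites.

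At the NSUN6 motif, the Slc genes held 10 sites with CTCCA starting at the C, 8 in coding sequence and 2 in 3′ UTRs. This is 2.58% of the Slc sites, against 0.933% of all listed sites; each was passed in 1 library. CTCCA was searched on the transcribed strand at the site only. In heart, Slc4a3 had 5 of 44 and 3 of 113 unconverted reads in WT and 0 of 82 and 0 of 26 in KO, in coding exon 6 of 23. Its mean level was 0.0701 ± 0.0616 (SD, n = 2) in WT, and the 108 KO reads allow up to 0.0278. It was the 1 Slc site that met the criteria in WT and was at 0 in both KO libraries (edgeR adjusted p = 0.556), 1 of 474 pairs of an Slc site and a tissue with 20 reads in all 4 libraries, where the rule was met by 0.2% of such pairs over all sites. With WT and KO traded, 3 of these 474 Slc pairs met it, against 0.234% of pairs over all sites. They were Slc35e1 in small intestine and Slc12a7 and Slc52a3 in kidney. Both kidney pairs rest mainly on KO replicate 2, the library with the highest pooled level over Slc sites outside the criteria. A site is listed only if a library passed it, at a level of at least 0.1. Slc4a3 reached that level in heart WT replicate 1, and Slc12a7 and Slc52a3 in kidney KO replicate 2. For these genes the listing itself favours the genotype that was higher.

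Slc38a3 had the most reads of the CTCCA sites. In liver 1 of 234 and 11 of 419 reads were unconverted in WT, and 0 of 889 and 0 of 686 in KO. In heart, where it was passed, it had 5 of 27 in WT replicate 2 and 0 of 14 in WT replicate 1, and 0 of 13 and 0 of 39 in KO. The WT mean of 0.0153 ± 0.0155 (SD, n = 2) is below the criteria, so the site was not in the main test; without a filter on level it had an unadjusted edgeR p of 0.031 and an adjusted p of 1. Slc22a29 had 0 of 55 and 2 of 238 in kidney WT and 0 of 164 and 0 of 52 in KO, and Slc22a17 in kidney and Slc12a7 in liver had no unconverted read in either genotype.

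Summed over the 5 CTCCA pairs with 20 reads in all 4 libraries, WT had 22 unconverted of 1291 reads (1.7%) and KO had 0 of 2078, which allows up to 0.144%. By the same rule the CTCCA sites of other genes had 4.6% in WT and 0.252% in KO over 438 pairs, and Slc sites at another sequence had 1.12% in WT and 2.14% in KO over 469 pairs. These sums have no test and carry the depth of single sites and libraries: 12 of the 22 WT reads are from Slc38a3 and 8 from Slc4a3. Every Slc CTCCA site but that of Slc12a7 reached the pass level of 0.1 in a WT library. A site is listed only through a library that passed it, so the listing favours WT. Of the 5 pairs, Slc4a3 in heart is the only one that includes the library where its site reached that level. At CTCCA sites outside these 5 pairs the reads did not allow the comparison. Slc12a4 in heart WT (15 of 46 and 0 of 24), Slc15a2, Slc38a2 and Slc37a2 in spleen WT replicate 2 (13 of 41, 14 of 75 and 12 of 26) and Slc12a7 in small intestine KO replicate 2 (7 of 44) each had unconverted reads in a single library, as did Slc22a17 in heart WT replicate 2 (5 of 36). Slc22a27 had 10 of 63 in liver WT replicate 2 and 1 of 25 in kidney WT replicate 1, and its twin Slc22a29 had 10 of 62 in the same liver library.

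**Figure D5:**
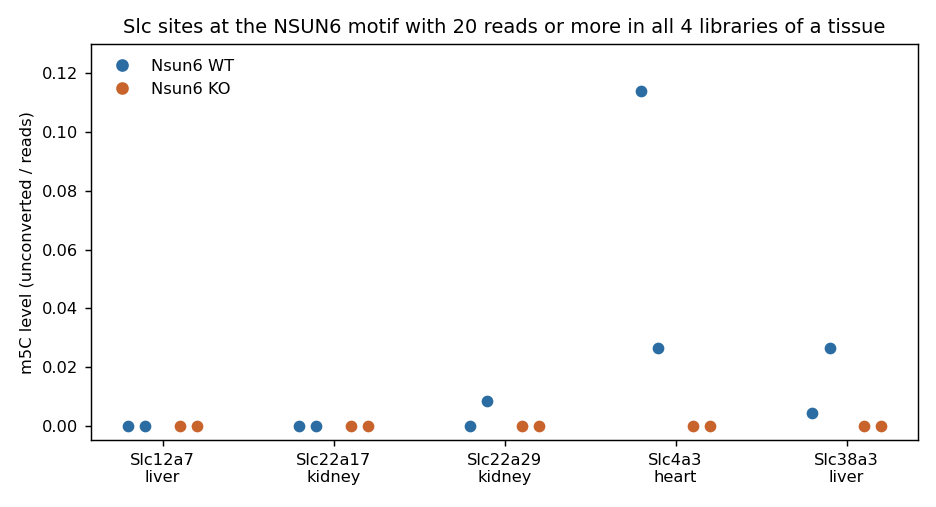
m5C level (y axis) of the 5 Slc sites at the NSUN6 motif that had 20 or more reads in all 4 libraries of a tissue (x axis); each point is 1 library, blue for WT and orange for KO. Slc4a3 in heart WT has 0.114 and 0.0265, and all KO points are at 0.

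The sites of Slc genes lay more often in 3′ UTRs and less often in coding sequence than listed sites at large, given as shares with no test: 37.6% against 28.3% of sites with a gene in 3′ UTRs, and 51.8% against 59.3% in coding sequence. For 5′ UTRs the shares were 6.19% and 6.62%. Of the 18 Slc sites that met the criteria, 8 (44.4%) had G 2 bases after the C (CNG), against 33% of all Slc sites, 56.8% of all sites that met the criteria and 35.9% of all listed sites. CNGGG was found at 4.12% of Slc sites and 4.45% of all sites. The search for CNG was chosen after the sequences were seen; the Slc sites with it were those of Slc43a2, Slc16a13, Slc38a10, Slc22a12, Slc35a3, Slc35e1 and both of Slc13a3.

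Some genes held many listed sites. Slc12a7 had 19, Slc11a2, the iron carrier, 12, Slc20a2 12, the taurine carrier Slc6a6 10 and Slc4a3 9, against a median of 2 per gene. Of these sites, 1 in Slc12a7 and 2 in Slc4a3 met the criteria, and 1 in Slc20a2 was passed in 2 libraries. The sites of Slc12a7 were spread over 8 libraries, with at most 4 passed in any, while 6 of the 12 sites of Slc11a2 were passed in heart KO replicate 1. Slc9a3r1 and the other 4 genes that are not carriers had no site that met the criteria.

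Genes that work with carriers were read in the same way. Of 65 pumps, ABC transporters, Slco carriers, chaperones, scaffolds and regulators, 49 had 162 listed sites, of which 9 met the criteria (1071 of the 32378 sites of any gene did), in Abca3, Abcb8, Atp2a2, Atp2b1, Bsg, Nedd4, Stom and Wnk4. None of the 9 pairs tested fell or rose, against 15 that fell and 7 that rose of 1165 pairs of any site, and 1 had an unadjusted p under 0.05, in Atp2a2, the calcium pump of heart muscle, in heart (edgeR log2 ratio of the odds 0.92, adjusted p = 0.269). The mitochondrial carriers left out of the rule had 98 sites in 34 genes, of which 7 met the criteria (7.53% of covered sites), with 1 CTCCA site.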

How the data were processed

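Bisulfite-treated mRNA libraries (stranded kit) were called by the authors with the RNA-m5C pipeline; the submitters' notes name the build mm10. Not given in the sources used here: aligner and versions. In the deposited table each library has a coverage count, an unconverted-C count and an m5C level, which the authors give as a fraction; it equals unconverted count over coverage. A column marks sites passed by the authors. The 60 columns of p-values, signals and nonconversion rates were not used. The lowest coverage listed is 10. Where a site was passed, coverage was never under 20, the unconverted count never under 3 and the level never under 0.1, and every listed site was passed in at least 1 library. Incomplete conversion of a read leaves C and adds to the level, and PCR copies are not independent molecules; limits for a count of 0 (3 counts over the reads) cover counting error only.

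Members and lists were chosen with earlier results of these data known. Converted and unconverted counts entered edgeR 4.0.16 under R 4.3.3 (quasi-likelihood F test by glmQLFit and glmQLFTest, with each library's own intercept beside a methylation term, Benjamini-Hochberg over all sites tested, threshold 0.05). Limma 3.58.1 (logit level, 0.5 added), DESeq2 1.42.0, other minimums of reads, a replicate block and leaving out each library were alternatives; fits were tested on simulated data. The replicate numbers in the labels do not state a pairing. Named were Slc sites that passed a test, were at level 0 in KO or traded, met the criteria (at most 8 per group), were passed in at least 2 libraries or held CTCCA with 20 WT reads in both libraries, with the 4 most covered genes per tissue, the 5 genes with most sites and up to 4 genes per transport class by highest level, of which a part is given; 1 of the most covered genes is not reported here. Marker lists covered the 5 tissues and 7 other cell types, and of the latter the erythroid and pancreas lists are given above. Smooth muscle took 1.08% of the reads of small intestine KO replicate 1 and 0.0398% to 0.304% in the other 3. Plasma cell and adipose lists took at most 0.00743% in any library. Skeletal muscle took 0.0158% to 0.054% in heart, and macrophage 0.0566% to 0.119% in spleen. In liver, macrophage markers took 0.081% of WT replicate 1, 0.00427% of WT replicate 2, and 0.0118% and 0.0131% in KO. Regions come from GENCODE M21 and sequences from the RefSeq copy of the mm10 genome; the base was C at 32365 of 32365 sites with sequence. Python 3.11.15, pandas 2.3.3, numpy 2.4.6, scipy 1.17.1 and matplotlib 3.10.9 were used. Slc26a2, Slc35a4 and Slc66a2 sequences are not reported here.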

Additional observations from a re-analysis of the deposited data

Results flagged for a closer look

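Slc16a10, the carrier of aromatic amino acids, moved in opposite directions between tissues at its site in the first coding exon. The mean level in KO minus that in WT was 0.0919 in small intestine, where both KO libraries were above both WT libraries, and -0.201 in liver, where both KO libraries were below both WT libraries. The difference between the tissues was not tested, neither change passed the edgeR test within its tissue, and the liver KO values rest on 25 and 26 reads. The 2 liver WT libraries passed 1410 and 2577 sites of any gene and the 2 liver KO libraries 128 and 115; in small intestine KO replicate 1 passed 3741 and the other 3 libraries 313 to 621. The part of this in the result was not tested. Groups of 2 libraries were not tested for a library far from the others.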

How the results depend on the processing

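The count of 0 Slc calls held in every tissue with limma, DESeq2, minimums of 10 and 50 reads, the replicate block and no filter on level (474 Slc pairs tested, 0 called, 2 with an unadjusted edgeR p under 0.05; 6 of 41495 pairs of any site called). No tested pair of an Slc site and a tissue turned direction or changed its side of the threshold under an alternative other than a left-out library. Deviations of same-numbered WT and KO libraries correlated between -0.14 (heart) and 0.08 (liver). This cannot show whether libraries of the same number share a batch or litter, which remains unknown. In small intestine, pancreas acinar markers took 1.4% and 0.91% in replicate 1 of WT and KO and 0% in both replicates 2. With the replicate block 0 Slc sites were called, and the calls over all sites were 3 lower and 0 higher in small intestine, 2 and 7 in liver, 0 and 3 in spleen, 0 and 0 in kidney and 9 and 2 in heart. Over all sites, DESeq2 called 5 lower and 8 higher in liver (1 and 3 with edgeR) and 3 lower in kidney (0), limma called 0 in heart with 49 lower and 23 higher at an unadjusted p under 0.05 (11 and 1 with edgeR), and a minimum of 10 reads called 9 lower over the 5 tissues (5). Between WT tissues, a minimum of 10 reads gave 1 Slc call among 4 Slc sites, a smaller share than over all 303 sites tested. A mean level of 0.1 left 1 Slc site that met the criteria in WT small intestine and 3 in kidney, and a minimum of 50 reads left 2 in heart. With 50 reads required of the group at 0, 0 Slc pairs were lost and 0 were found with WT and KO traded. Pooling the reads of both libraries gave a median over the 39 levels of 0.131 against 0.144, lowered Slc13a3 at position 165405607 from 0.0547 to 0.0206 and Slc12a7 from 0.191 to 0.0776 in kidney KO, and took Slc36a1 in small intestine WT (0.0458) and Slc22a12 in kidney WT (0.0492) under 0.05. Summing the liver KO libraries to 1, an alternative chosen after seeing the data, left 1 site lower and 0 higher over all genes and 0 Slc calls.

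Leaving out 1 library had more effect. With the other library alone, 7 to 11 Slc sites met the criteria in WT small intestine, 23 to 42 in liver, 8 to 46 in spleen and 32 to 43 in heart, and the pairs at 0 ranged from 1 to 15 and, traded, from 1 to 24. Slc calls ranged from 0 to 1 lower in liver, 0 to 4 higher in kidney and 0 to 1 between WT tissues, the last without either liver WT library (Slc38a10). The log2 ratio of the odds turned direction at Slc22a12 (-0.0226 to 1.89), both Slc13a3 sites (-0.42 to 4.02 and -0.12 to 1.34), Slc39a1 (-4.25 to 0.35) and Slc35a3 (-0.45 to 0.40) in kidney, Slc38a10 (-1.37 to 1.80) and Slc35e1 (-0.80 to 2.23) in heart, Slc38a10 in liver (-0.98 to 2.60) and Slc36a1 in small intestine (-0.13 to 3.46). The arm with 1 library was assumed to vary like the other. Sites without 20 reads in both libraries of any group, 50 of the 388, could not be read by these criteria.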
